A study of Mus musculus with 16 samples.

Results

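The 33 genes described here encode proteins of homologous recombination, the Fanconi anemia pathway and the checkpoint that works with them. They were taken by symbol from a fixed list, and all 33 were found among the 24411 genes of the deposited mouse tables. The tables hold bulk RNA-Seq of 16 libraries in 5 groups. Celiac ganglia (spelled Coelic in the labels) of mice aged 2 weeks made up 4 groups. Without the MYCN transgene there were 4 libraries of wild-type (wt) Runx1t1 and 3 labelled Runx1t1 heterozygote (het), called transgene-free ganglia, 7 in all. With MYCN homozygous there were 3 libraries with wild-type Runx1t1 and 2 labelled Runx1t1 het, called MYCN ganglia. The last group was 4 tumors of MYCN homozygous mice with wild-type Runx1t1, whose age the labels do not give.

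In this model the Th promoter drives human MYCN in neuroectodermal cells. Runx1t1 encodes a transcriptional co-repressor, and the het allele is an insertional inactivation brought in from a separate mouse line. The human transgene has no row in the tables, so the MYCN genotype rests on the labels. Runx1t1 itself did not separate the het groups from their counterparts. It measured 2.78 to 4.41 TPM (transcript abundance scaled by length and depth) in transgene-free Runx1t1 wt ganglia and 4.38, 4.36 and 6.28 TPM in those labelled het. In MYCN ganglia it was 70.3, 7.90 and 37.4 TPM in the Runx1t1 wt group and 8.83 and 16.9 TPM in those labelled het, and in tumors 55.8, 29.5, 33.6 and 48.1 TPM. The cell type label reads neuroblastoma also for the ganglia. Th, the enzyme gene that starts noradrenaline synthesis, was at 786 TPM or more in each transgene-free ganglion and at 172 to 548 TPM in tumors.

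Libraries held between 10692299 and 38618757 counts. After a filter on low counts 16665 genes were tested, among them all 33 genes of the list. Replicate 2 of the transgene-free Runx1t1 wt ganglia stood apart by immune and other marker RNA. Its 10 lymphocyte markers summed to 1059 TPM against 3.98 to 13.7 TPM in the other transgene-free ganglia, and its 18 proliferation markers to 649 TPM against 111 to 155 TPM. Myeloid markers summed to 2127 TPM against 46.8 to 185 TPM, endothelium markers to 534 TPM against 47.5 to 299 TPM, and sympathetic neuron markers to 6232 TPM against 10860 to 17732 TPM. Tumor replicate 3 carried hepatocyte RNA, with Alb at 2497 TPM. No label says that replicates were separate animals, so p-values measure the spread between these libraries. In bulk tissue fewer cells of a type and less RNA per cell cannot be told apart.

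Homologous recombination repairs a broken chromosome by copying the intact sister. The ends are first resected to single strands, RPA covers these strands, and the BRCA proteins then act on the covered strands before the sister is copied. The Fanconi proteins recognise DNA crosslinked between its strands and mark the Fancd2 and Fanci pair with ubiquitin, which calls in repair by the same route. Atr, with Atrip and Topbp1, senses RPA-coated DNA and activates the kinase Chek1. Many of these genes are known to be transcribed in S phase, when a sister is present.

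To compare the genes in tumors with those in ganglia that lack the transgene, levels were set side by side and tested with edgeR over all genes. In tumors 31 of the 33 genes were higher than in transgene-free ganglia, against 30.6% of all genes tested. The exceptions were Nbn, the sensor subunit of the MRN complex, which was lower (30.9% of all genes were lower), and Fancc, a subunit of the Fanconi core complex, with a log2 fold change of 0.54 ± 0.23 (SE, adjusted p = 0.0549). The median log2 fold change of the 33 genes was 2.78, beside -0.06 over all genes. The call held for 28 of the 32 genes called under every alternative that tested them, and not for Nbn, Fance, Fancg and Fancl. Of the 28, 9 had too few counts to be tested when at least 10 counts were asked of every library. The largest log2 fold changes were 6.45 ± 0.84 for Exo1, 5.55 ± 0.68 for Rad54l and 5.01 ± 0.74 for Fancd2. In TPM, all 4 tumors were above all 7 transgene-free ganglia for 24 of the 33 genes, a pattern shared by 14.5% of all genes. The heat map of the 33 genes shows both the rise and its unevenness.

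**Figure D1:**
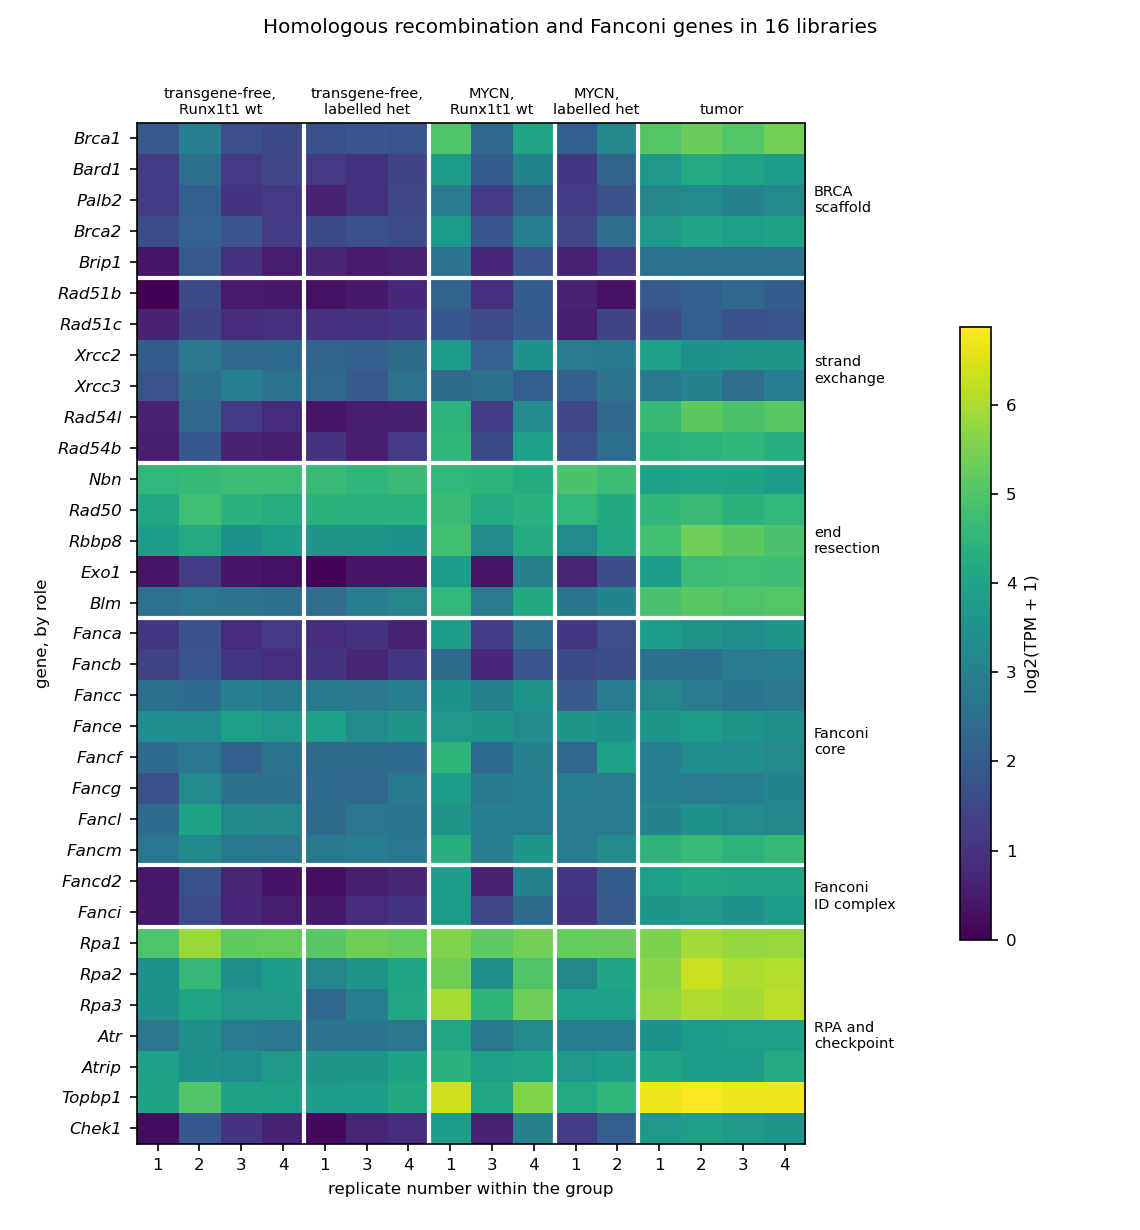
Level of each of the 33 genes (rows, grouped by role) in each of the 16 libraries (columns, by group and replicate number), coloured by log2(TPM + 1). Within a row, the 4 tumor columns are brighter than every transgene-free ganglion for 24 genes, although several of these, Rad51c and Rad51b among them, stay dim beside other rows. Replicates 1 and 4 of the MYCN Runx1t1 wt ganglia approach the tumors for many genes, and Nbn, Rad50 and Fance have similar colours in ganglia and tumors.

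How far a gene stood apart went with its level in normal ganglia. The 13 genes with a median under 1.5 TPM in transgene-free ganglia had log2 fold changes from 1.69 to 6.45 (median 3.84) in tumors. The 11 genes between 1.5 and 7 TPM had a median of 1.51, and the 9 genes at 7 TPM or more a median of 0.91. The last class holds Rad50, Nbn, Rbbp8, Fance, Atrip, Topbp1 and the RPA subunits, and ran from -0.31 for Nbn to 3.12 for Topbp1. These are descriptions with limits of the classes chosen after values were seen, since the same ganglia enter both values. On the scale of log2(TPM + 1) the median gene with a mean of at least 1 TPM was 0.42 lower in tumors than in transgene-free ganglia, whereas the edgeR scale, normalized by TMM, put it at -0.04. The ribosomal RNA gene Rn45s took 8.57% to 12.8% of the counts in tumors and 2.15% to 5.64% in transgene-free ganglia.

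Among the BRCA scaffold genes, all 5 were higher in tumors than in transgene-free ganglia. Brca1, a ubiquitin ligase subunit, ran from 1.88 to 6.71 TPM in transgene-free ganglia (median 2.45), where replicate 2 of the wild-type group was the highest. In tumors it was at 31.5, 38.0, 32.5 and 41.9 TPM, and the log2 fold change was 4.06 ± 0.50 (adjusted p = 1.25e-05). The MYCN Runx1t1 wt ganglia spread between these groups, at 30.2, 3.88 and 15.3 TPM in replicates 1, 3 and 4. Those labelled het were at 3.15 and 7.94 TPM, so that replicate 3 of the first group and replicate 1 of the second were both below the highest transgene-free ganglion.

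Palb2, which bridges Brca1 to Brca2, lay at 0.61 to 3.16 TPM (median 1.21) in transgene-free ganglia and at 7.73, 8.56, 7.37 and 8.81 TPM in tumors, with a log2 fold change of 2.98 ± 0.48. In MYCN Runx1t1 wt ganglia it was at 6.12, 1.26 and 3.64 TPM, and in those labelled het at 1.3 and 2.25 TPM. All 4 tumors thus stood above all ganglia for this gene. Brip1, a helicase that binds Brca1, had tumors at 4.93, 4.95, 4.86 and 5.20 TPM against 0.34 to 2.82 TPM (median 0.51) in transgene-free ganglia. MYCN replicate 1 (Runx1t1 wt) was at 5.21 TPM, level with the highest tumor, beside 0.69 and 2.66 TPM in replicates 3 and 4 and 0.60 and 1.41 TPM in the pair labelled het. Its log2 fold change from transgene-free ganglia was 3.08 ± 0.58. The remaining genes of the group, Bard1 and Brca2, had log2 fold changes of 3.48 ± 0.46 and 3.11 ± 0.39.

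The genes of the strand exchange group ranged from log2 fold changes of 0.93 to 5.55, and all 6 were higher in tumors than in transgene-free ganglia. Rad54l, a motor protein that drives strand exchange, was at 0.30 to 3.78 TPM (median 0.61) in transgene-free ganglia and at 23.3, 34.4, 29.9 and 32.7 TPM in tumors. Its values in MYCN ganglia were 20.8, 1.38 and 8.58 TPM in the Runx1t1 wt group and 1.83 and 3.8 TPM in those labelled het. The tumors did not overlap with any ganglion, and the log2 fold change from transgene-free ganglia was 5.55 ± 0.68 (adjusted p = 1.23e-05). Its relative Rad54b (chr4:11558922-11615805, GRCm38) was at 0.47 to 2.68 TPM (median 0.62) in transgene-free ganglia and at 19.4, 20.7, 22.1 and 18.8 TPM in tumors. Here MYCN replicate 1 (Runx1t1 wt), at 22.0 TPM, was within the tumor range, replicates 3 and 4 were at 1.93 and 14.2 TPM, and the pair labelled het at 2.33 and 4.56 TPM. The log2 fold change between tumors and transgene-free ganglia was 4.87 ± 0.61. Exons of Rad54b overlap those of Fsbp on the same strand, so reads of these genes may be shared out between them.

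Xrcc3 showed the opposite extreme of the group. It ran from 2.41 to 6.77 TPM (median 4.82) in transgene-free ganglia and was at 5.79, 7.29, 4.44 and 6.65 TPM in tumors, groups that overlap in TPM although edgeR called it higher at 0.93 ± 0.30 (adjusted p = 0.0137). MYCN ganglia were at 4.16, 4.78 and 3.14 TPM in the Runx1t1 wt group and at 3.29 and 5.08 TPM in those labelled het, inside the transgene-free range. Rad51c, of the same group, was at 0.62 to 1.66 TPM (median 0.97) in transgene-free ganglia and at 2.09, 3.11, 2.23 and 2.42 TPM in tumors. All 3 MYCN Runx1t1 wt ganglia, at 2.72, 2.00 and 2.94 TPM, were above the transgene-free ganglia, while those labelled het were at 0.45 and 1.64 TPM. Rad51c was 1.69 ± 0.37 higher in tumors on the log2 scale. Rad51b and Xrcc2 had log2 fold changes of 3.01 ± 0.71 and 1.97 ± 0.30 in tumors. Rad51b was at 3 counts or fewer in 3 libraries, so its level in ganglia is poorly resolved.

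The genes of end resection held both the largest rise in tumors and the single gene called lower. Exo1 (chr1:175880581-175913489), the nuclease of long-range resection, was at 0.04 to 1.32 TPM (median 0.29) in transgene-free ganglia and at 13.2, 24.9, 26.1 and 25.7 TPM in tumors. MYCN Runx1t1 wt ganglia were at 12.7, 0.29 and 6.89 TPM and those labelled het at 0.63 and 2.15 TPM. The log2 fold change of 6.45 ± 0.84 (adjusted p = 1.93e-05) stands on 1 to 37 counts in each transgene-free ganglion and 1026 to 2778 counts in each tumor. Blm (chr7:80454733-80535119), the helicase that unwinds recombination intermediates, had the smallest adjusted p of the list. It ran from 4.49 to 7.72 TPM (median 5.26) in transgene-free ganglia and was at 28.8, 33.8, 30.7 and 31.6 TPM in tumors, 2.89 ± 0.28 higher on the log2 scale (adjusted p = 2.15e-06). In MYCN ganglia it was at 22.5, 6.30 and 16.9 TPM in the Runx1t1 wt group and at 5.32 and 7.57 TPM in those labelled het.

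Nbn (chr4:15957925-15992589) went the other way. It ran from 21.8 to 25.7 TPM (median 24.0) in transgene-free ganglia, and was at 22.3, 20.9 and 17.8 TPM in MYCN Runx1t1 wt ganglia, 29.2 and 25.1 TPM in those labelled het, and 14.1, 15.2, 14.6 and 12.9 TPM in tumors. All tumors were below all ganglia on this scale. The share of all genes with this pattern was not counted. The log2 fold change was -0.31 ± 0.12 (adjusted p = 0.0411) on the edgeR scale, beside -0.71 on log2(TPM + 1). On the latter scale the median gene with a mean of at least 1 TPM was itself at -0.42, and Nbn was at -0.29 relative to it. The edgeR call was lost under 12 of 19 alternatives, with an adjusted p of up to 0.110. Its partner Rad50 was 0.57 ± 0.17 higher in tumors, with 15.98 to 26.2 TPM in transgene-free ganglia and 20.5 to 23.5 TPM in tumors. Nbn over Rad50 in TPM was 0.889 to 1.41 in transgene-free ganglia and 0.580 to 0.712 in tumors, and such a ratio within a library does not depend on its scaling. Rbbp8, which starts resection together with these proteins, was 1.87 ± 0.29 higher in tumors.

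**Figure D2:**
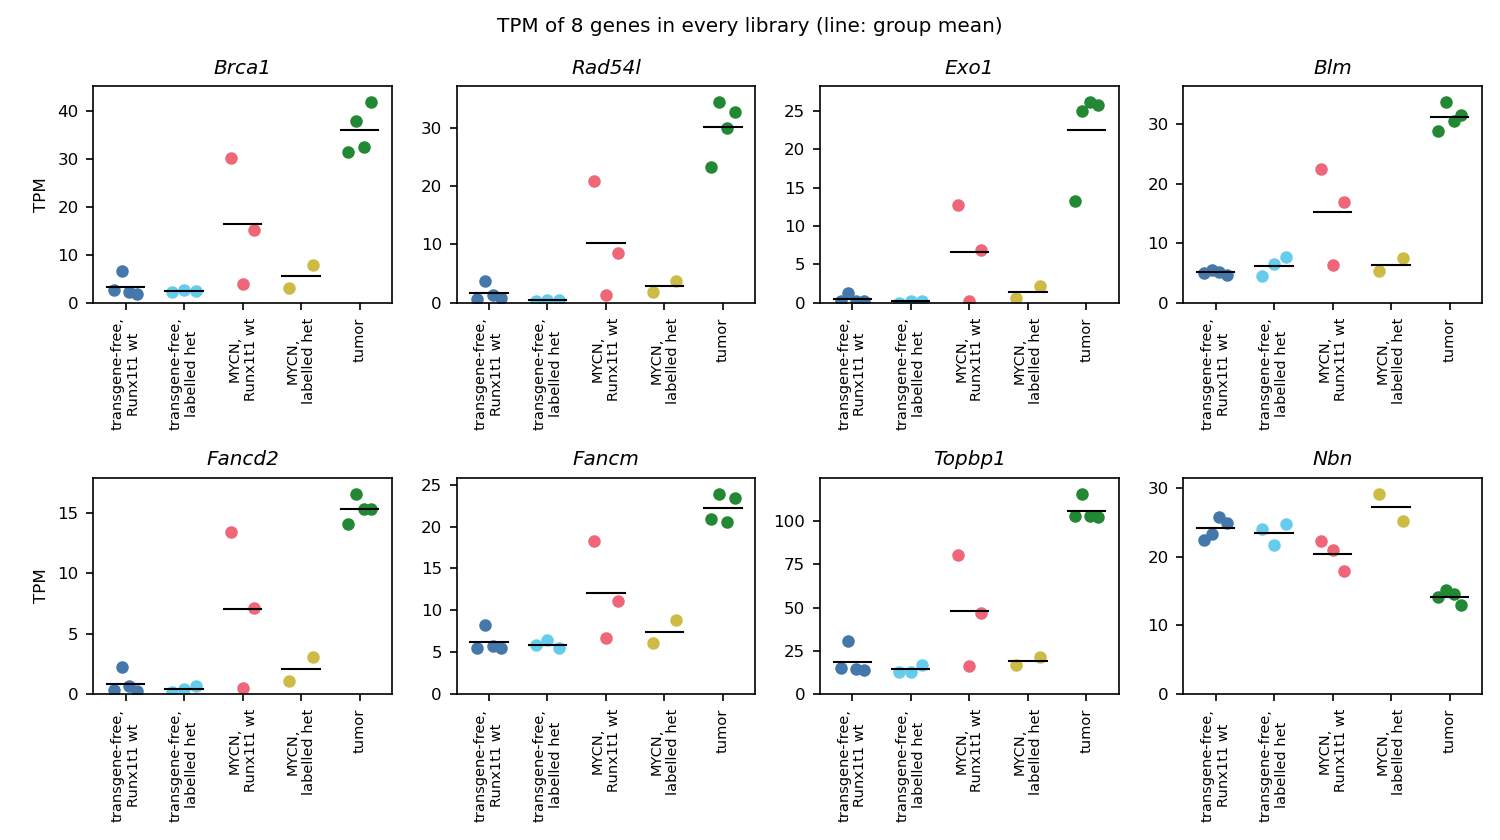
TPM of 8 genes in every library, with 1 panel per gene, 1 point per library, groups along the horizontal axis and a line at each group mean. For Brca1, Rad54l, Exo1, Blm, Fancd2, Fancm and Topbp1 the 4 tumors are the highest points and the 3 MYCN Runx1t1 wt ganglia are spread widely, while for Nbn the 4 tumors, at 12.9 to 15.2 TPM, are the lowest points.

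Of the 8 genes of the Fanconi core complex and its anchor Fancm, 7 were higher in tumors than in transgene-free ganglia, with a median log2 fold change of 1.13, beside 4.62 for the Fancd2 and Fanci pair they act on. The difference between these groups was not tested. Fancb, a subunit of the core's catalytic module, was at 0.66 to 2.48 TPM (median 1.12) in transgene-free ganglia and 4.81, 4.70, 6.24 and 6.39 TPM in tumors. It was at 4.16, 0.71 and 2.66 TPM in MYCN Runx1t1 wt ganglia and at 1.85 and 2.11 TPM in those labelled het. Fancm, the DNA translocase that docks the core on damaged DNA, was at 5.47 to 8.31 TPM (median 5.80) in transgene-free ganglia and 20.9, 23.9, 20.6 and 23.4 TPM in tumors. Its values in MYCN ganglia were 18.2, 6.71 and 11.2 TPM in the Runx1t1 wt group and 6.07 and 8.82 TPM in those labelled het. Both were separated from all ganglia in tumors, with log2 fold changes of 2.62 ± 0.43 and 2.29 ± 0.25 from transgene-free ganglia.

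Fancc was not called. It was at 4.28 to 6.80 TPM (median 5.83) in transgene-free ganglia and 7.89, 5.92, 5.35 and 5.74 TPM in tumors. The highest values were 10.4 and 10.8 TPM in replicates 1 and 4 of the MYCN Runx1t1 wt ganglia, with replicate 3 at 7.15 TPM, and the lowest 2.95 TPM in replicate 1 of those labelled het, beside 6.18 TPM in replicate 2. Fanca was the core subunit with the largest change, 3.84 ± 0.50, and Fance, Fancg and Fancl had the smallest among those called, 0.48 to 0.87. Fancf, singled out after its values were seen, was at 3.35 to 5.42 TPM in transgene-free ganglia and 6.84 to 9.34 TPM in tumors, but at 21.0 TPM in replicate 1 of the MYCN Runx1t1 wt ganglia and 13.9 TPM in replicate 2 of those labelled het. Its exons overlap Gas2 on the opposite strand, as those of Fanca, Fancc, Fancl, Fancd2, Fanci, Xrcc3, Rad54l and Atr overlap other genes, and the use of strand in counting is not given in the sources used here.

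The ubiquitinated pair rose together. Fancd2 was at 0.21 to 2.24 TPM (median 0.46) in transgene-free ganglia, 13.4, 0.54 and 7.13 TPM in MYCN Runx1t1 wt ganglia, 1.12 and 3.10 TPM in those labelled het and 14.0, 16.6, 15.3 and 15.3 TPM in tumors. Fanci was at 0.39 to 2.02 TPM (median 0.73), then 12.8, 1.81 and 4.4 TPM, 1.07 and 2.91 TPM, and 11.2, 11.97, 10.6 and 12.5 TPM in the same order. Both were higher in tumors than in transgene-free ganglia, by 5.01 ± 0.74 and 4.23 ± 0.57 on the log2 scale. Fancd2 over Fanci in TPM was 0.538 to 1.11 in transgene-free ganglia and 1.22 to 1.44 in tumors, and in MYCN replicates 1, 3 and 4 (Runx1t1 wt) it was 1.05, 0.298 and 1.62.

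In the RPA and checkpoint group all 7 genes were higher in tumors than in transgene-free ganglia. Topbp1 (chr9:103305215-103350428), the activator of Atr, had the highest TPM of the 33 genes in tumors, at 103, 116, 103 and 102 TPM. In transgene-free ganglia it ran from 12.9 to 30.9 TPM (median 14.5), and the log2 fold change was 3.12 ± 0.36 (adjusted p = 7.56e-06). MYCN Runx1t1 wt ganglia were at 80.4, 16.2 and 46.7 TPM and those labelled het at 17.2 and 21.8 TPM, so that replicate 3 of the first group was within the transgene-free range. Atrip, the partner that carries Atr to RPA, was at 9.05 to 14.9 TPM (median 11.1) in transgene-free ganglia, 19.7, 13.6 and 15.2 TPM in MYCN Runx1t1 wt ganglia, 11.6 and 13.5 TPM in those labelled het and 15.66, 13.3, 12.7 and 17.2 TPM in tumors. Tumors and ganglia overlap for Atrip in TPM, although edgeR called it higher at 0.76 ± 0.18. Its exons overlap Trex1 on the same strand. Chek1 was 4.35 ± 0.76 higher, on 2 to 46 counts in each transgene-free ganglion, and Atr 1.51 ± 0.26 higher.

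The subunits of RPA, which bind single-stranded DNA as a trimer, differed more in level from each other in transgene-free ganglia than in tumors. Rpa1, the large subunit, was at 30.5 to 55.7 TPM (median 36.7) in transgene-free ganglia and 44.7 to 59.3 TPM in tumors, with a log2 fold change of 0.91 ± 0.18. Rpa2 was at 7.69 to 23.0 TPM (median 11.0) in transgene-free ganglia and 48.8, 78.0, 63.6 and 66.1 TPM in tumors, 2.78 ± 0.38 higher. In MYCN ganglia it was at 40.8, 9.61 and 31.2 TPM in the Runx1t1 wt group and at 7.81 and 15.3 TPM in those labelled het. Rpa3 was at 3.81 to 16.2 TPM (median 11.9) in transgene-free ganglia and 53.4 to 71.4 TPM in tumors, 3.03 ± 0.36 higher. Per library, Rpa2 over Rpa1 in TPM was 0.235 to 0.429 in transgene-free ganglia and 1.09 to 1.32 in tumors, and Rpa3 over Rpa1 was 0.116 to 0.441 and 1.09 to 1.301. In MYCN replicates 1, 3 and 4 (Runx1t1 wt), Rpa2 over Rpa1 was 0.886, 0.276 and 0.739, and Rpa3 over Rpa1 was 1.34, 0.600 and 0.939, replicate 1 being above every tumor for the latter. The 7 pairs of partners for which ratios were taken were chosen after values were seen and are given with no test. Brca1 over Bard1, Palb2 over Brca2 and Atr over Atrip overlapped between transgene-free ganglia and tumors.

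**Figure D3:**
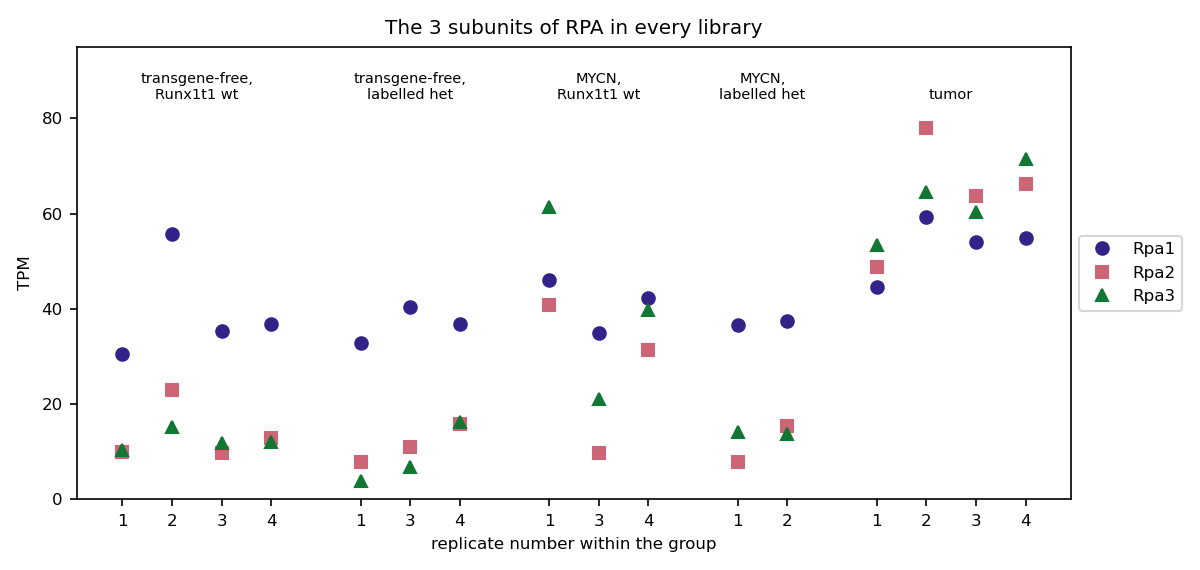
TPM of Rpa1 (circles), Rpa2 (squares) and Rpa3 (triangles) in each of the 16 libraries, by group and replicate number. Rpa1 lies well above the other two in transgene-free ganglia, and in the 4 tumors Rpa2 over Rpa1 is 1.09 to 1.32 and Rpa3 over Rpa1 is 1.09 to 1.301.

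Some of the genes share letters before their start sites. RefSeq windows of 250 bases before and 50 after the start (GRCm38.p6) were found for 26 of the 33 genes, and not for Xrcc2, Rad54b, Nbn, Rad50, Rbbp8, Exo1 and Fancd2. The windows were searched on both strands for forms of the core that E2F factors bind, for the CHR element of cell cycle genes, for the CCAAT box and for the E-box that MYC proteins bind. The E2F form GCGGGAA was found in 9 of the 26 genes (34.6%), against 5.29% of all 27025 genes with a window. GCGCGAA was found in 4 (15.4%, against 1.81%) and GCGCCAA in 5 (19.2%, against 2.85%), so that 14 genes (53.8%) held at least 1 of these forms, against 9.20% of all genes. The CCAAT box was in 17 genes (65.4%, against 41.1%), the CHR letters TTTGAA in 2 (7.69%, against 20.2%) and the E-box CACGTG in 1, Rpa1 (3.85%, against 8.09%). The letters GCGCCAA overlap CCAAT in the window of Fancf and GCGCGAA in that of Topbp1. Log2 fold changes between tumors and transgene-free ganglia ranged from 0.87 to 4.35 (median 3.05) over the 14 genes with an E2F form and from 0.48 to 5.55 (median 1.22) over the other 12. The 7 genes without a window enter neither range, and theirs ran from -0.31 for Nbn to 6.45 for Exo1, with Fancd2 at 5.01 and Rad54b at 4.87. The 27025 genes also include genes that were not tested here. The RefSeq start used lay 65533 bases from the GENCODE gene start for Fancc and 949 for Fancl, both counted without an E2F form. It lay 407 and 409 bases away for Chek1 and Fanci, which hold 1. Rad51c, Rad54l and Rad51b had more than 1 window. A match is a description of the window and not of binding.

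The 180 bases before the start are shown for 4 genes that were higher in tumors and hold an E2F form, and for Rad54l, which had the second largest change and holds none in its window. Capitals mark GCGGGAA or GCGCGAA, or their reverse complements TTCCCGC and TTCGCGC. The Fancm stretch is chr12:65075423-65075602 (+ strand), that of Fancb chrX:164980412-164980591 (+), that of Brca2 chr5:150522441-150522620 (+), that of Rpa2 chr4:132768180-132768359 (+) and that of Rad54l chr4:116123691-116123870 (- strand). In Fancm the matches begin 107 and 54 bases before the start, in Fancb 172, in Brca2 168 and in Rpa2 37.
Fancm: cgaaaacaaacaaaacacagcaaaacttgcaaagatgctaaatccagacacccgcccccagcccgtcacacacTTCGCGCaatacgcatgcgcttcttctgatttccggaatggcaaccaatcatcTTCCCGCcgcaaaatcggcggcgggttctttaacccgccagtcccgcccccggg
Fancb: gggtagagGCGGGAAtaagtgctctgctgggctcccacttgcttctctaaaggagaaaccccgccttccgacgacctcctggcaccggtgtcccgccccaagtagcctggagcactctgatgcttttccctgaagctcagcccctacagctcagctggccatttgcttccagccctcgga
Brca2: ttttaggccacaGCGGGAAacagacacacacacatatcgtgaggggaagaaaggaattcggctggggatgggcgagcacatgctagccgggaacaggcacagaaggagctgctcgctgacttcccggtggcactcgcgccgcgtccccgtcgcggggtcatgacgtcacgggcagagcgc
Rpa2: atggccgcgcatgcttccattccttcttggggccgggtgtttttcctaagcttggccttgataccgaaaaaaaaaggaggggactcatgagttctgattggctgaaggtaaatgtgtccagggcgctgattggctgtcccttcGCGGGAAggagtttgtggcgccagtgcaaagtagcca
Rad54l: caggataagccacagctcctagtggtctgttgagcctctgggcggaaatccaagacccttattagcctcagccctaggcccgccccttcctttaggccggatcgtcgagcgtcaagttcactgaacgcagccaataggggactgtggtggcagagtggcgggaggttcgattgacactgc

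The next question was whether the genes are already raised in MYCN ganglia, which are labelled as ganglia and not as tumors. Between MYCN and transgene-free Runx1t1 wt ganglia, 2 of the 33 genes were called higher, Rad54b by 3.74 ± 0.75 (adjusted p = 0.0397) and Blm by 1.64 ± 0.34 (adjusted p = 0.0425), and 0 lower. Over all genes 0.834% were called higher. The median log2 fold change of the 33 genes was 1.33, beside -0.04 over all genes, and 0.64 without MYCN replicate 1. With all libraries 30 of the 33 were above 0, as were 46.4% of all genes (29 of the 33 on log2(TPM + 1), where Fance was below), and 21 had an unadjusted p under 0.05 (63.6%, against 19.8% of all genes). For 4 genes, Rad51c, Blm, Fancc and Rpa3, all 3 MYCN ganglia were above all 4 transgene-free ones, a pattern of 4.93% of all genes. No gene of the list, and 0.528% of all genes, had all 5 MYCN ganglia above all 7 transgene-free ganglia.

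The count of calls changed with single libraries, over all genes as well as in the list. Without transgene-free replicate 2, the library with immune marker RNA, 15 of the genes were called (3.46% of all genes), and without MYCN replicate 3, 18 (8.76%). Leaving out any of MYCN replicates 1 and 4 or transgene-free replicates 1, 3 and 4 left 0 of the list and 0 of all genes called by edgeR. In these 5 fits 12 to 20 of the 33 genes had an unadjusted p under 0.05, and their median log2 fold change was 0.64 without MYCN replicate 1 and 1.05 to 1.28 in the other 4. DESeq2 called 16 (6.11% of all genes it gave an adjusted p). Neither Rad54b nor Blm was called under every alternative, and neither was called within the libraries under or over 20000000 counts, where groups hold 1 or 2 libraries.

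The 3 MYCN Runx1t1 wt ganglia were unlike each other. The mean log2(TPM + 1) over the 33 genes was 4.00, 2.41 and 3.38 in replicates 1, 3 and 4. Transgene-free ganglia ran from 2.06 to 2.34 and at 2.89 in replicate 2 of the wild-type group, and tumors from 3.88 to 4.09. Replicate 1 was above every transgene-free ganglion for 27 of the genes, against 23.3% of all genes tested. Replicate 4 was above them for 24 (20.1% of all genes) and replicate 3 for 3 (11.2%). Replicate 1 was also at or above the lowest tumor for 21 genes, or 63.6%, a lower share than the 85.3% of all genes. It was above the highest tumor for 11 (33.3%, against 45.6% of all genes): Brip1, Nbn, Rad50, Fanca, Fancc, Fancf, Fancg, Fancl, Fanci, Atr and Atrip.

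Proliferation markers ordered the libraries in much the same way. Their mean log2(TPM + 1) was 6.63, 3.33 and 5.74 in MYCN replicates 1, 3 and 4 (Runx1t1 wt), 2.26 to 2.76 in transgene-free ganglia other than replicate 2 of the wild-type group, which was at 4.75, and 6.86 to 7.26 in tumors. All 18 of these markers were called higher in tumors than in transgene-free ganglia (median log2 fold change 4.91). Between MYCN and transgene-free Runx1t1 wt ganglia the median was 2.59, 16 of the 18 had an unadjusted p under 0.05 and the smallest adjusted p was 0.0525. The 8 glia markers summed to 13.8 to 21.4 TPM in tumors and to 557 to 2004 TPM in transgene-free ganglia. Fibroblast markers summed to 159 to 360 TPM in tumors and 910 to 4394 TPM in transgene-free ganglia, and sympathetic neuron markers to 1834 to 3021 TPM and 6232 to 17732 TPM. Myeloid markers summed to 323 to 1011 TPM in tumors and 46.8 to 185 TPM in transgene-free ganglia other than replicate 2 of the wild-type group. MYCN replicate 1 (Runx1t1 wt) also stood apart from replicates 3 and 4 in other measures. Its glia markers summed to 487 TPM, against 1846 and 1270, and its 6 fibroblast markers to 637 TPM, against 1868 and 1698. Rn45s took 8.8% of its counts, against 4.61% and 4.92%. The part of dividing cells, glia, fibroblasts, neurons, myeloid cells, lymphocytes or Rn45s in the levels of the 33 genes was not tested.

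**Figure D4:**
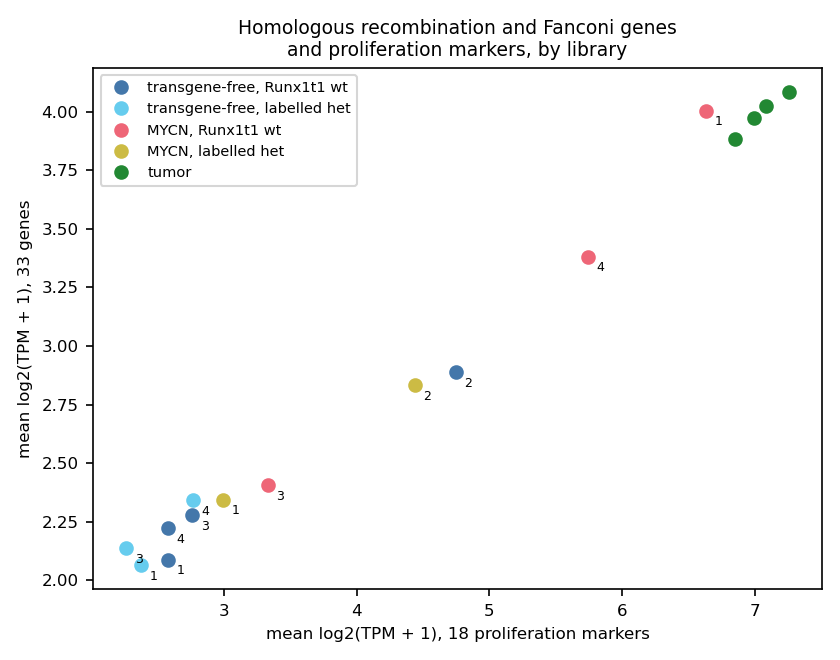
Mean log2(TPM + 1) of the 33 genes (vertical) against that of 18 proliferation markers (horizontal), 1 point per library, coloured by group, with replicate numbers beside the ganglia. MYCN replicate 1 (Runx1t1 wt) (6.63, 4.00) lies by the tumors, replicate 4 (5.74, 3.38) lies between, and replicate 3 (3.33, 2.41) lies by the transgene-free ganglia.

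In MYCN ganglia labelled Runx1t1 het the mean log2(TPM + 1) over the 33 genes was 2.34 and 2.83. Both were above every transgene-free ganglion other than replicate 2 of the wild-type group, at 2.89, the first by a margin that 2 decimals do not show. In TPM, 2 and 11 genes were above every transgene-free ganglion, against 13.6% and 13.3% of all genes. In edgeR, 0 of the 33 genes were called higher than in transgene-free ganglia labelled het (0.0% of all genes), with a median log2 fold change of 0.38 and 3 genes, Rad54l, Rad54b and Exo1, at an unadjusted p under 0.05 (9.09%, against 1.45% of all genes). DESeq2 also called 0. The median was 0.20 to 0.62 without 1 library, 0.02 with a term for library depth and -0.07 with the replicate number as a block, so no direction is given for it. Over both Runx1t1 genotypes together, 0 genes of the list were called higher with MYCN (0.042% of all genes), 16 had an unadjusted p under 0.05 (48.5%, against 9.44% of all genes), and the median was 0.84. DESeq2 called 8 there (2.22% of all genes), and edgeR 7 without transgene-free replicate 2 (1.15%) and 15 without MYCN replicate 3 (Runx1t1 wt) (4.11%).

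The label of Runx1t1 was compared within MYCN ganglia. Depth differed between the labels: the Runx1t1 wt libraries held 11240429, 24873952 and 35779888 counts, and those labelled het 14221960 and 12367963. The median log2 fold change from Runx1t1 wt to those labelled het was -1.37, beside -0.09 over all genes. The estimate was below 0 for 32 of the 33 genes, Nbn being the exception, and for 56.4% of all genes. The median was -0.72 without MYCN replicate 1 (Runx1t1 wt) and -0.85 without replicate 1 of those labelled het. On log2(TPM + 1) Xrcc3 and Fance were above 0 too. In edgeR 0 were called (0.0% of all genes were lower), 13 had an unadjusted p under 0.05 (39.4%, against 12.6% of all genes), the smallest adjusted p was 0.300, and DESeq2 called 0. Without MYCN replicate 3 (Runx1t1 wt), Blm, Fanca and Topbp1 were called lower (1.42% of all genes). Proliferation markers moved with the list: their mean log2(TPM + 1) was 2.99 and 4.44 in the MYCN ganglia labelled het, all 18 had an estimate below 0 between the labels (median -2.19), 10 had an unadjusted p under 0.05 and the smallest adjusted p was 0.320. Their part in the levels of the 33 genes was not tested. In transgene-free ganglia the median was -0.33 between labelled het and wild-type, with 0 called by edgeR (0.0%) or DESeq2 and Rad54l alone at an unadjusted p under 0.05, against 4.12% of all genes. The median was 0.03 without replicate 2 of the wild-type group and 0.11 within libraries over 20000000 counts, so no direction is given for it either.

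The difference of the MYCN effect between Runx1t1 genotypes was tested as an interaction. The median over the 33 genes was -0.71, and -0.11 without MYCN replicate 1 (Runx1t1 wt) and -1.38 without transgene-free replicate 2 (Runx1t1 wt), with 0 called by edgeR (0.0% of all genes were lower) or DESeq2. Blm, at -1.64 ± 0.54, and Fancc, at -1.29 ± 0.45, had an unadjusted p under 0.05 (6.06%, against 5.62% of all genes), with an adjusted p of 0.845 for both. No difference between genotypes in the MYCN effect was detected for these genes.

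Tumors were also compared with ganglia of the same MYCN and Runx1t1 genotype. Here 7 of the 33 genes were called higher, Rbbp8, Blm, Fancb, Fancm, Rpa1, Rpa2 and Topbp1, and 0 lower, against 14.0% of all genes higher. The log2 fold changes of the 7 ran from 0.75 ± 0.22 for Rpa1 to 1.60 ± 0.49 for Rpa2. The median over the 33 genes was 1.10, beside -0.01 over all genes, and it was 1.77 without MYCN replicate 1 and 0.66 without replicate 3. With all libraries 30 of the 33 estimates were above 0, against 49.7% of all genes. In either direction, 15 had an unadjusted p under 0.05 (45.5%, against 45.1% of all genes). Exo1 and Rad54l had the largest estimates, 2.09 ± 0.93 and 1.84 ± 0.78, but missed the threshold (adjusted p = 0.0975 and 0.0817). In TPM, all 4 tumors were above all 3 of these ganglia for 11 genes, against 8.32% of all genes. Rad51c, Fancf and Atrip had estimates above 0 in edgeR and below 0 on log2(TPM + 1), so no direction is given for them. In the same comparison the 18 proliferation markers had log2 fold changes of 1.32 to 2.28 (median 1.63). Those of the 8 glia markers ran from -8.93 to -3.25 (median -5.12). The part of either in the levels of the 33 genes was not tested.

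Without MYCN replicate 1 (Runx1t1 wt), 19 genes were called (18.9% of all genes), and without replicate 3 or replicate 4 only Blm and Fancm, beside 7.39% and 7.8% of all genes. DESeq2 called 14 (18.8%), and within libraries over 20000000 counts 23 were called (20.5%). Blm and Fancm were called under every alternative tried, with log2 fold changes of 1.38 ± 0.35 and 1.23 ± 0.32.

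Against MYCN ganglia labelled het, 26 of the 33 genes were higher in tumors (22.0% of all genes) and Nbn was lower, at -0.44 ± 0.17 (23.5% of all genes were lower). Both of these ganglia held 14221960 counts or fewer and all 4 tumors 27096032 or more. Group and library depth therefore cannot be told apart from these libraries alone. The median log2 fold change was 2.65, beside 0.07 over all genes. Here the 18 proliferation markers had log2 fold changes of 2.98 to 5.03 (median 3.77). The 8 glia markers had values of -7.92 to -3.38 (median -5.35). Whether either had a part in the levels of the 33 genes was not tested. In TPM, all 4 tumors were above both of these ganglia for 25 genes, against 20.4% of all genes. Without replicate 1 of the ganglia labelled het, 5 genes were called higher, Blm, Fancm, Rpa2, Rpa3 and Topbp1 (9.27% of all genes), with a median of 2.12. Without replicate 2, 17 were called (14.7% of all genes), with a median of 2.96. In both cases the remaining library was assumed to vary like the other groups. The Nbn call was lost under 9 of 13 alternatives. The comparisons share libraries with each other, and the plot of fold changes sets their values side by side.

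**Figure D5:**
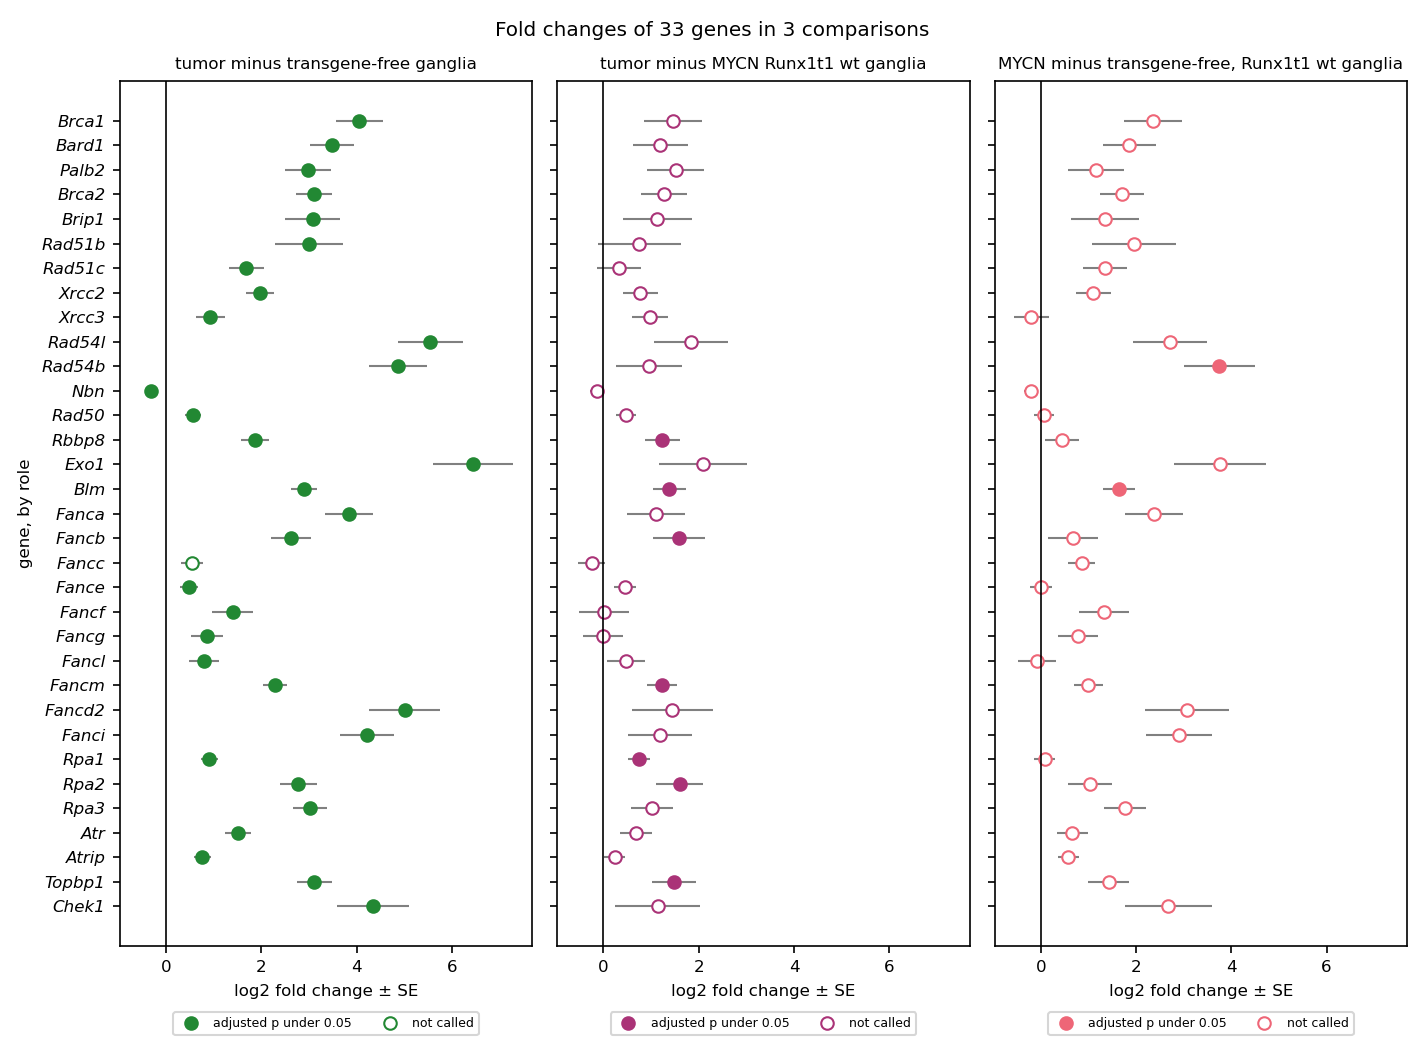
Log2 fold change (edgeR) with its standard error for each of the 33 genes in 3 comparisons, filled where the adjusted p is under 0.05. Between tumors and transgene-free ganglia 32 genes are filled, between tumors and MYCN Runx1t1 wt ganglia 7, and between MYCN and transgene-free Runx1t1 wt ganglia 2.

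Other genes of the pathway gave a background for the list. Of 60 further homologous recombination and Fanconi genes, 41 (68.3%) were higher and 4 lower in tumors than in transgene-free ganglia (median log2 fold change 0.94), against 30.6% and 30.9% of all genes. In tumors against MYCN Runx1t1 wt ganglia 17 (28.3%) were higher (median 0.57), against 14.0% of all genes, and the other 43 did not pass. The largest of the 17 were Hfm1, a meiotic helicase gene, at 2.44 ± 0.89, Mcm8, which encodes a recombination helicase, at 1.90 ± 0.57, and Ube2t, the conjugating enzyme that serves the Fancd2 and Fanci pair, at 1.83 ± 0.47. Ube2t was at 1.18 to 4.02 TPM in transgene-free ganglia, 8.41, 2.19 and 7.15 TPM in MYCN Runx1t1 wt ganglia and 14.0, 16.7, 17.1 and 14.9 TPM in tumors. Between MYCN and transgene-free Runx1t1 wt ganglia, Timeless, a replication fork gene, was the single further gene called, at 1.93 ± 0.40 (adjusted p = 0.0425). That was 1.67% of the 60 genes, against 0.834% of all genes. The call was lost in every fit that called 0 of all genes. Such fits included the replicate block and only the groups compared. Of 15 genes of end joining, the other route of break repair, 7 (46.7%) were higher and 3 lower in tumors than in transgene-free ganglia, beside the same shares of all genes, 30.6% and 30.9%, with a median of 0.83 beside 2.78 for the 33 genes. The difference between these lists was not tested.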

How the data were processed

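Bulk RNA-Seq was deposited as gene tables of the 16 libraries. The authors made expected counts with RSEM after alignment with STAR, and SAMtools and the build mm10 are also named in the submitters' processing notes. The authors also deposited TPM, which is scaled by length and by depth within a library, and TPM was used here for levels. The headers' "Hom" was read as wild-type Runx1t1, as the labels state. A polyA selection is labelled, while the library kit named is for total RNA. Expected counts were rounded, filtered with filterByExpr, normalized by TMM and tested over all groups with edgeR 4.0.16 (quasi-likelihood F test, Benjamini-Hochberg adjustment over all genes, threshold 0.05) in R 4.3.3. SE is the absolute log2 fold change over the square root of F. DESeq2 1.42.0, other normalization and filters, a replicate block, fewer groups and leaving out each library were alternatives. Tables and promoter searches used Python 3.11, with gene positions from GENCODE and promoters from RefSeq. The members and lists were chosen with earlier results of these data known. Named genes were those called between ganglia and, per role group, the 2 with the largest and the 1 with the smallest log2 fold change between tumors and MYCN Runx1t1 wt ganglia. Other pathway genes were named where they were among the 3 largest called changes in either direction there.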

Additional observations from a re-analysis of the deposited data

Results flagged for a closer look

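Replicate 2 of the transgene-free Runx1t1 wt ganglia lay far from the other 3 of its group for 4 genes. Rad54b was at 2.68 TPM against 0.47 to 0.62 TPM, Exo1 at 1.32 against 0.23 to 0.29 TPM, Fancm at 8.31 against 5.47 to 5.80 TPM and Topbp1 at 30.86 against 14.07 to 14.92 TPM. The same library held 1059 TPM of lymphocyte, 2127 TPM of myeloid, 534 TPM of endothelium and 649 TPM of proliferation markers, whose part in these values was not tested. Among tumors, replicate 1 stood apart for Exo1, at 13.21 TPM against 24.94 to 26.12 TPM, and replicate 2 for Topbp1, at 115.71 TPM against 102.18 to 102.82 TPM. Chance marks about 1 in 20 groups in this way, or 3.3 of the 66 groups examined, and 6 were marked. The genes share the same libraries and 4 of the 6 marks fell in 1 library, so the marks are not independent and the 2 counts cannot be weighed against each other.

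For Nbn, every MYCN Runx1t1 wt ganglion was below every transgene-free one of that genotype in TPM, while those labelled het were above theirs. In edgeR the log2 fold changes with MYCN were -0.20 ± 0.15 (Runx1t1 wt) and 0.16 ± 0.18 (labelled het), and neither was called. The tested difference of the MYCN effect was 0.36 ± 0.23 on the log2 scale (edgeR, adjusted p = 0.845), which did not pass the threshold.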

How the results depend on the processing

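The number of the 33 genes called between tumors and transgene-free ganglia (32) ran from 28 to 33 over the alternatives that tested all 33, was 24 of 24 tested with at least 10 counts in every library, and was 28 to 31 when 1 library was left out. Between tumors and MYCN Runx1t1 wt ganglia (7) it was 14 with DESeq2, 16 with a term for library depth (17.6% of all genes higher), 4 with only the groups compared (11.4%), 23 with libraries over 20000000 counts, and 2 to 19 without 1 library. Between tumors and MYCN ganglia labelled het (27) it was 5 to 26 without 1 library. Between MYCN and transgene-free Runx1t1 wt ganglia (2) it was 16 with DESeq2, 1 (Blm) with at least 10 counts in every library, where 24 of the 33 were tested and Rad54b was not, 5 with the depth term (1.69% of all genes), 0 with only the groups compared or with libraries under or over 20000000 counts, and 0 to 18 without 1 library. Over both Runx1t1 genotypes (0) it was 8 with DESeq2 and 0 to 15 without 1 library, and for the het label within MYCN ganglia (0) it was 0 to 3. For the other comparisons it was 0 throughout. The causes of these changes were not tested. The depth term and the splits at 20000000 counts were chosen after seeing the data, and a split had no value where a group had no library on that side.

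With the replicate number as a block, 0 of the list and 0 of all genes were called between MYCN and transgene-free Runx1t1 wt ganglia and 28 between tumors and transgene-free ganglia, where Nbn, Fance, Fancg and Fancl lost the call. The correlation of same-numbered libraries ran from -0.273 to 0.308. Transgene-free Runx1t1 wt ganglia and tumors were at 0.149 to 0.308 over their 4 pairs, although ganglion replicate 4 was as close to tumor replicate 1 (0.150), and no other 2 groups had every pair over 0.1. The tumor comparison also holds the ganglia labelled het, whose numbers did not go with the tumors (-0.143 to 0.021), so the numbers were not taken as pairs. The sign of the median of the 33 genes was the same under 142 of 145 alternatives. The other 3 were the MYCN difference in ganglia labelled het (0.38), at -0.07 with the block, and the het label in transgene-free ganglia (-0.33), at 0.03 without replicate 2 of the wild-type group and 0.11 with libraries over 20000000 counts. Over the 24 genes with at least 10 counts in every library, the median between tumors and MYCN ganglia labelled het was 1.64, beside 2.65. Between tumors and transgene-free ganglia it was 1.89, beside 2.78. Of 168 alternatives for 11 single gene results, 113 kept the call, 55 lost it and 0 reversed.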
